A study of Mus musculus with 8 samples.

Results

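The glucocorticoid receptor gene Nr3c1 and 6 genes known as its targets in immune cells, Tsc22d3, Fkbp5, Per1, Sgk1, Klf9 and Ddit4, were followed in immune cells sorted from the mouse brain. These 7 genes were taken by symbol from the 32285 genes annotated in the count matrices, and all 7 were detected. Glucocorticoids are adrenal steroids whose level in blood follows the day and rises with stress and inflammation. The receptor waits in the cytoplasm bound to heat shock proteins, moves to the nucleus once it binds the hormone, and there switches genes on at glucocorticoid response elements and holds back inflammatory genes. Fkbp5 encodes a chaperone of the receptor that lowers its affinity for hormone, and Tsc22d3 encodes GILZ, which restrains inflammatory transcription factors. Per1 is a repressor of the circadian clock, Klf9 a transcriptional repressor, Sgk1 a kinase that regulates ion transport, and Ddit4 (REDD1) an inhibitor of the growth kinase complex mTORC1 that hypoxia and other stresses also induce. Over all cells, the files held 27052 UMIs (unique molecular identifiers, each marking 1 captured transcript) of Nr3c1, 93901 of Tsc22d3, 18940 of Fkbp5, 17941 of Per1, 11128 of Sgk1, 9142 of Klf9 and 27678 of Ddit4.

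The study asked how colitis acts on immune cells of the brain in a mouse model of amyloid deposition. Wild-type (WT) C57BL/6J mice and App NL-G-F mice, in which humanized and mutated amyloid precursor sequence is knocked into the App gene itself, were labelled as 16 weeks old. For each genotype there was 1 library of untreated controls on water, 1 of acute colitis (2% dextran sodium sulfate, DSS, in the drinking water for 7 days), 1 of chronic colitis (3 cycles of 2% DSS for 5 days, each followed by water) and 1 of food allergy (ovalbumin by injection with alum and then by mouth). All mice were perfused, and CD45.2+ cells of the brain were sorted and sequenced with the 10x 5′ kit. With 1 library per condition, library and condition cannot be told apart.

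The 8 libraries held 4877 to 7200 cells, 50112 in all, with 2777 to 4130 UMIs per cell at the median. Ptprc, which encodes CD45, had a UMI in 65.8% to 72.4% of cells per library, and microglia, the resident macrophages of the brain, made up only 39 cells. Of the cells, 35872 were assigned to a type by marker genes, and 14 types had enough cells to be compared. Hashtag antibodies marked the samples pooled into a library, and the cells of each library fell into 3 or 4 hashtag groups, 30 in all. The hashtag groups served as replicates. Nothing ties a hashtag to an animal, so p-values measure only the spread between these groups. For App NL-G-F mice the paper lists fewer mice than hashtag groups in chronic colitis, and more in acute colitis. A hashtag group therefore need not be a separate animal. UMIs were summed per hashtag group and cell type and are given scaled to the total UMIs of that group and type (CPM).

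The hashtag groups divided into 2 sets by their immediate-early genes (such as Fos, Jun and Egr1, which cells switch on within minutes of a stimulus). Summed over 10 such genes in CD4 and CD8 T cells, 11 groups lay at 486 to 835 CPM and 16 at 2192 to 4361 CPM, with the widest gap, of 2.62-fold, in between. The other 3 groups held fewer than 50 T cells and were placed on either side by their CPM, 665 and 974 CPM in the low set and 1480 CPM in the high set. In the controls and in chronic colitis the high set consisted of hashtags 6 and 7, and in acute colitis and food allergy of hashtags 4 and 5, with hashtag 7 of WT acute colitis besides. Within a set, acute colitis and food allergy were therefore compared with control across different hashtag numbers, and among the same numbers across different sets, so condition, set and hashtag cannot be told apart in these contrasts. Chronic colitis and the genotypes had the same hashtags in a set. The division was found in the data and the labels do not explain it. Each comparison is given over all hashtag groups first, then within each set and, for acute colitis and food allergy, among the same hashtags.

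The positions and promoters of the target genes are given first, since response elements are what makes a gene a direct target. On GRCm38, Fkbp5 lies on chromosome 17 from 28399094 to 28517527 on the minus strand, Ddit4 on chromosome 10 from 59949669 to 59951834 on the minus strand, and Sgk1 on chromosome 10 from 21882184 to 21999903 on the plus strand. Per1 lies on chromosome 11 from 69095217 to 69109960 and Klf9 on chromosome 19 from 23141226 to 23168134, both on the plus strand, and Tsc22d3 on chromosome X from 140539528 to 140600659 on the minus strand. RefSeq promoters of 300 bases, from 250 before to 50 after the start of transcription (GRCm38.p6), were searched on both strands for the palindromic response element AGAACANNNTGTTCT, its relaxed form GNACANNNTGTNC, the hexamer TGTTCT and the E-box CACGTG, which clock factors bind. The palindrome was rare, in 3 of 32851 promoters (0.00913%). The relaxed form stood in 0.475% of them, the hexamer in 19.0% and the E-box in 7.15%. One of those palindromes lay in 1 of the 6 Sgk1 promoters. The promoters of Sgk1, of Fkbp5 and of Ddit4 are shown, the first for its element and the others because most of the differences concern these genes. Capitals mark a match to any of the motifs.
Sgk1, chr10:21993640-21993939, plus strand: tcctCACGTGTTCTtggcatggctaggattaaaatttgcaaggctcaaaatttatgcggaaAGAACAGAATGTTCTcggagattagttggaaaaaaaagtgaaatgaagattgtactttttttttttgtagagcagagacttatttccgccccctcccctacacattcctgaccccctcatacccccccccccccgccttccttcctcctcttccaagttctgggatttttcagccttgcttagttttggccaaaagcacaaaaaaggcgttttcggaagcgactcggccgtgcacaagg
Fkbp5, chr17:28486100-28486399, minus strand: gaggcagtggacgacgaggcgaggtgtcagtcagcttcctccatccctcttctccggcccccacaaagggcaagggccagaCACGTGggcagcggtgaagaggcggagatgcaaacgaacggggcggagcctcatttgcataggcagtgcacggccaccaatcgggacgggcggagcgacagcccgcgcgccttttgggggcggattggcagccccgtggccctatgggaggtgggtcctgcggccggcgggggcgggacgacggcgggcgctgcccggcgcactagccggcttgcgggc
Ddit4, chr10:59951721-59952020, minus strand: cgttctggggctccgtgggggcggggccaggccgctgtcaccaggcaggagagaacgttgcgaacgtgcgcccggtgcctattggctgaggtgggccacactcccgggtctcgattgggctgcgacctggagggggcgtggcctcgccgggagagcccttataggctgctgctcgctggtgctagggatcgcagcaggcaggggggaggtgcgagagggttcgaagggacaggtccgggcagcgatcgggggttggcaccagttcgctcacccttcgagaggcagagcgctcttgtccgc
In the Sgk1 sequence the first run of capitals joins an E-box to an overlapping hexamer, and the second is the palindrome, which also holds the relaxed form and 2 hexamers. The capitals in the Fkbp5 promoter are an E-box, which 1 of the 2 Per1 promoters held as well. The hexamer stood in 1 of 3 Tsc22d3 promoters, and in Ddit4 and Klf9 none of these letters occurred in this window. Elements farther from the start site were not searched.

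Each gene had its own order of cell types (plot of the level of each gene by cell type). Nr3c1 was highest in group 2 innate lymphoid cells (ILC2), tissue-resident producers of type 2 cytokines, at 310 ± 151 CPM (SD, n = 26 hashtag groups), against 165 ± 57.5 CPM (n = 21) in gamma-delta T cells, which came next. It was lowest in plasma cells, at 26.2 ± 12.7 CPM (n = 16). The step from ILC2 to gamma-delta T cells was past the threshold (mean difference 0.80 on the log2 scale over 21 paired groups, adjusted p = 0.00091, permutation test of sign changes), as were those from CD4 T cells to NK cells and from neutrophils to their precursors. None of the 10 other steps in its order was.

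ILC2 were also near the top for most of the targets. Ddit4 reached 278 ± 180 CPM in ILC2 and 20.0 ± 17.9 CPM in neutrophils, the ends of its order. Klf9 was at 159 ± 53.4 CPM in ILC2 and 127 ± 40.0 CPM in gamma-delta T cells and then dropped to 50.8 ± 24.9 CPM in macrophages. That last step was 1.35 on the log2 scale over 16 paired groups (adjusted p = 0.000926, permutation test). Fkbp5 led in macrophages (182 ± 95.6 CPM) ahead of ILC2 (149 ± 52.9 CPM), 2 neighbours that did not differ beyond their spread (adjusted p = 0.731, permutation test). Per1 had the same pair at the top, at 161 ± 31.9 CPM in macrophages and 159 ± 52.6 CPM in ILC2.

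Tsc22d3 and Sgk1 had other leaders. Tsc22d3 was highest in B cells, at 804 ± 222 CPM (n = 27), and lowest in neutrophil precursors, at 94.6 ± 12.2 CPM (n = 11). Sgk1 was highest in type 1 conventional dendritic cells (cDC1), which cross-present antigen, at 115 ± 17.8 CPM (n = 16), and its step to macrophages (83.6 ± 39.8 CPM) was past the threshold (0.53 on the log2 scale over 16 pairs, adjusted p = 0.0091, permutation test). It was the only such step for Sgk1 among 13. Over the genes there were 3 for Nr3c1, 4 for Tsc22d3, 3 for Fkbp5, 3 for Per1, 3 for Klf9 and 3 for Ddit4. Types with too few cells were not ranked, and some lay above these leaders. Klf9 in fibroblasts was at 453 to 1844 CPM over the libraries, and Sgk1 in microglia ran from 41.6 CPM (1 UMI) to 1206 CPM (14 UMIs in 2 cells).

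**Figure D1:**
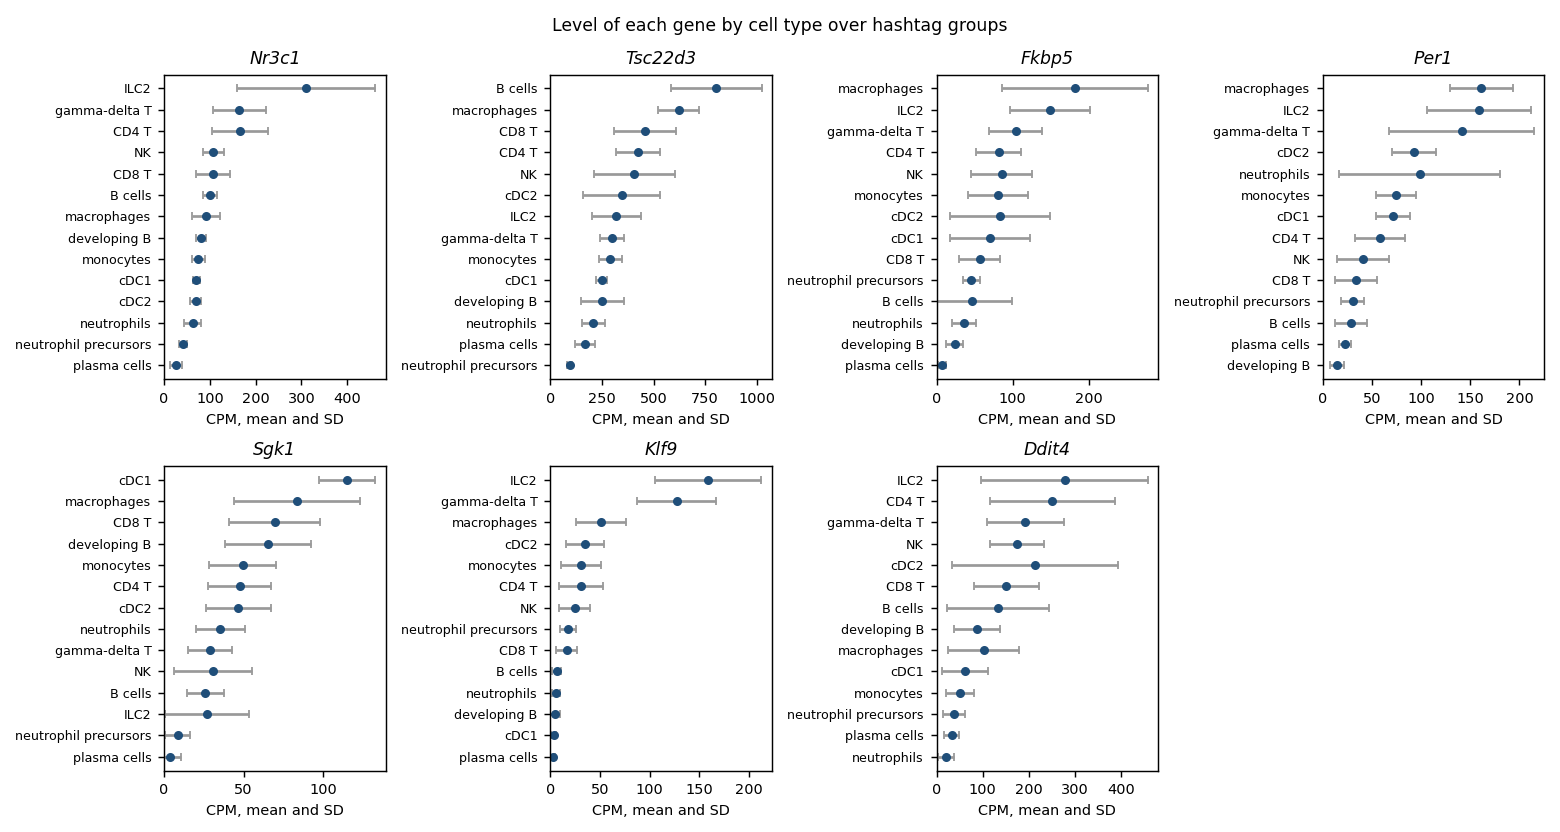
Mean CPM of each gene in 14 cell types (points) with the SD over hashtag groups (bars), cell types ordered by mean log2(CPM + 10), on linear axes that differ between genes. Nr3c1, Klf9 and Ddit4 were highest in ILC2, Fkbp5 and Per1 in macrophages, Tsc22d3 in B cells and Sgk1 in cDC1.

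Over the 14 cell types, the gene whose mean log2 level was most like that of Nr3c1, among 6000 compared, was Tmem251 (Pearson r = 0.956), followed by Kmt2c and Herc1. The closest to Fkbp5 was Ppp1r9b (r = 0.955), to Ddit4 Tbc1d10a (r = 0.931), to Klf9 Rarg (r = 0.943) and to Tsc22d3 Irf2 (r = 0.882). Per1 was closest to the immediate-early genes Junb (r = 0.932) and Ier2 (r = 0.911), and Sgk1 was closest to Commd8 (r = 0.827). These are descriptions over 14 points that share libraries and depth.

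Acute colitis was compared with control in every cell type with at least 2 hashtag groups per arm. In WT mice, 6 of 79 tests (a test is 1 gene in 1 cell type) were past an adjusted p of 0.05 and all 6 were lower in colitis, when 2.2% of the tests over all genes were called and 0.592% called lower. App NL-G-F mice had 4 calls of 79, again all lower, when 0.323% over all genes were called and 0.202% called lower. All 10 concerned Fkbp5 or Ddit4. Macrophages and cDC1 gave 8 of them, in both genotypes, where 3.76% of all genes were called in WT macrophages, 4.95% in WT cDC1, 1.09% in App NL-G-F macrophages and 1.66% in App NL-G-F cDC1. The others were Fkbp5 in monocytes and Ddit4 in gamma-delta T cells of WT mice. In each of these cells the groups tested were hashtags 6 and 7 of control and hashtags 4 and 5 of acute colitis, so condition and hashtag cannot be told apart in the 10 calls. The median log2 fold change of the 7 genes over the 79 tests was −0.27 for WT mice and 0.10 for App NL-G-F mice, while the median over all genes lay between −0.04 and 0.06 in each cell type.

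Fkbp5 in cDC1 showed the difference most plainly. It was at 145 and 176 CPM in the 2 hashtag groups of WT control and at 16.9 and 12.4 CPM in those of WT acute colitis. In the App NL-G-F groups it was at 66.3 and 176 CPM in control and 14 and 23.2 CPM in acute colitis. The groups did not overlap in either genotype. The log2 fold change was −3.27 (SE 0.40, adjusted p = 6.45e-06) in WT and −2.64 (SE 0.41, adjusted p = 0.000989) in App NL-G-F mice. Both calls held when any 1 of the 4 hashtag groups of the comparison was left out.

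In macrophages, Fkbp5 was at 254 and 195 CPM in WT control and 63.0 and 85.2 CPM in acute colitis, a log2 fold change of −1.64 (SE 0.35, adjusted p = 0.00531). In App NL-G-F macrophages it was at 161 and 333 CPM in control and 66.8 and 53.0 CPM in acute colitis, a change of −2.02 (SE 0.38, adjusted p = 0.00612). These calls rested on single hashtag groups. In WT, the adjusted p was 0.329 without hashtag 6 of the control and 0.0746 without hashtag 4 of acute colitis, and in App NL-G-F it was 0.177 without hashtag 7 of the control and 0.165 without hashtag 5 of acute colitis. Monocytes of WT mice had a change of −2.50 (SE 0.55, adjusted p = 0.0240), which was lost without any 1 of the 4 groups (adjusted p from 0.0523 to 0.355). The size ran from −1.76 without hashtag 4 of acute colitis to −3.19 without its hashtag 5.

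Ddit4, which restrains mTORC1, fell in the same cells. In cDC1 it was at 103 and 141 CPM in WT control and 12.9 and 20.1 CPM in acute colitis (log2 fold change −2.92, SE 0.45, adjusted p = 0.000131), a call kept with any 1 group left out. In App NL-G-F cDC1 it was at 86.1 and 195 CPM in control and 10.9 and 35.9 CPM in acute colitis (−2.48, SE 0.41, adjusted p = 0.0019), with an adjusted p of 0.0834 without hashtag 7 of the control and 0.0536 without hashtag 4 of acute colitis. No tested group of acute colitis reached the lowest control group in either genotype. Hashtag 7 of App NL-G-F acute colitis, of the low set, held only 10 cDC1 and was not tested, and in these Fkbp5 was at 212 CPM (20 UMIs) and Ddit4 at 530 CPM (50 UMIs).

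In macrophages, Ddit4 was at 224 and 167 CPM in WT control and 13.7 and 41.2 CPM in acute colitis (−2.88, SE 0.51, adjusted p = 0.00138; 0.182 without hashtag 6 of the control). In App NL-G-F macrophages it was at 67.3 and 272 CPM in control and 18.2 and 35.3 CPM in acute colitis (−2.49, SE 0.60, adjusted p = 0.0337). That call was lost without hashtag 7 of the control (−1.33, adjusted p = 0.662) or without either group of acute colitis (adjusted p = 0.260 and 0.183). In gamma-delta T cells of WT mice Ddit4 was at 262 and 294 CPM in control and 90.8 and 107 CPM in acute colitis (−1.49, SE 0.39, adjusted p = 0.0339), and 3 of the 4 left-out groups ended the call (adjusted p from 0.150 to 0.354).

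All tested macrophage and cDC1 values came from the high set, since no group of the low set held enough of these cells. The neutrophil markers (10 genes summed) in macrophages were at 102 to 123 CPM in WT control and 136 to 249 CPM in WT acute colitis, and at 177 to 239 CPM and 668 to 725 CPM in App NL-G-F mice. In cDC1 they were at 0 to 5.51 CPM in WT control and 7.73 to 9.94 CPM in WT acute colitis, and at 44.5 to 83.4 CPM and 145 to 173 CPM in App NL-G-F mice. The median depth per macrophage was 1821 to 2150 UMIs in WT control and 2965 to 3616 UMIs in WT acute colitis. Immediate-early genes in macrophages and cDC1 overlapped between control and acute colitis in both genotypes, except that both WT cDC1 groups of acute colitis, at 7725 and 7881 CPM, lay above the control groups, at 6928 and 7679 CPM. The part of these differences in the result was not tested.

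RNA free in the droplets held Fkbp5 at 50.7 CPM in the WT acute colitis library and 105 CPM in the App NL-G-F one, above the cDC1 of both. Free Ddit4 was at 90.6 and 120 CPM, also above the cDC1 of acute colitis. In the control libraries free Fkbp5 was at 93.3 CPM in WT and 78.2 CPM in App NL-G-F mice, and free Ddit4 at 145 and 117 CPM. These values rest on 14 to 82 UMIs per gene and library, and their part in the result was not tested.

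Beyond these calls, the direction in acute colitis depended on which hashtag groups were compared (heat map of log2 fold changes within a set). Within the high set, where hashtags 4 and 5 of colitis met hashtags 6 and 7 of control, 21 of 75 tests were called in WT mice, 20 lower and 1 higher, when 5.75% over all genes were called, 2.62% lower and 3.12% higher. App NL-G-F mice had 13 calls of 81, 12 lower and 1 higher, against 1.07% called over all genes, 0.697% called lower and 0.372% called higher. Within the low set of App NL-G-F mice, where acute colitis was 1 hashtag group against 2 of control, 8 of 54 were called and all were higher, against 1.95% called over all genes and 1.18% called higher. In the low set of WT mice, B cells alone could be tested, with 2 calls of 7, both higher (1.8% called over all genes and 1.05% called higher). The lone group was assumed to vary like the others in both cases, so calls in the low set of acute colitis have no spread of their own in that arm.

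Among the same hashtags the pattern was another. Hashtags 4 and 5 gave 6 calls of 41 in WT mice, 2 lower and 4 higher (3.77% over all genes, 1.04% lower and 2.73% higher), and 4 of 41 in App NL-G-F mice, all higher (2.57% over all genes, 1.6% higher). None of these calls was of Fkbp5, and 2 were of Ddit4, lower in CD8 T cells (−1.08, SE 0.28, adjusted p = 0.0274) and ILC2 (−1.92, SE 0.31, adjusted p = 0.000105) of WT mice. The rest were higher, with Per1 in B cells and NK cells of WT mice and in neutrophils and monocytes of App NL-G-F mice, Nr3c1 in B cells of both genotypes, and Tsc22d3 in B cells of WT mice and monocytes of App NL-G-F mice. Hashtags 6 and 7, with 1 group of acute colitis against 2 of control, gave none of 7 in WT mice with edgeR, in B cells alone (1 with an unadjusted p under 0.05, 0.622% called over all genes), and 4 of 61 in App NL-G-F mice, 1 lower and 3 higher (1.19% over all genes, 1.01% lower and 0.176% higher).

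**Figure D2:**
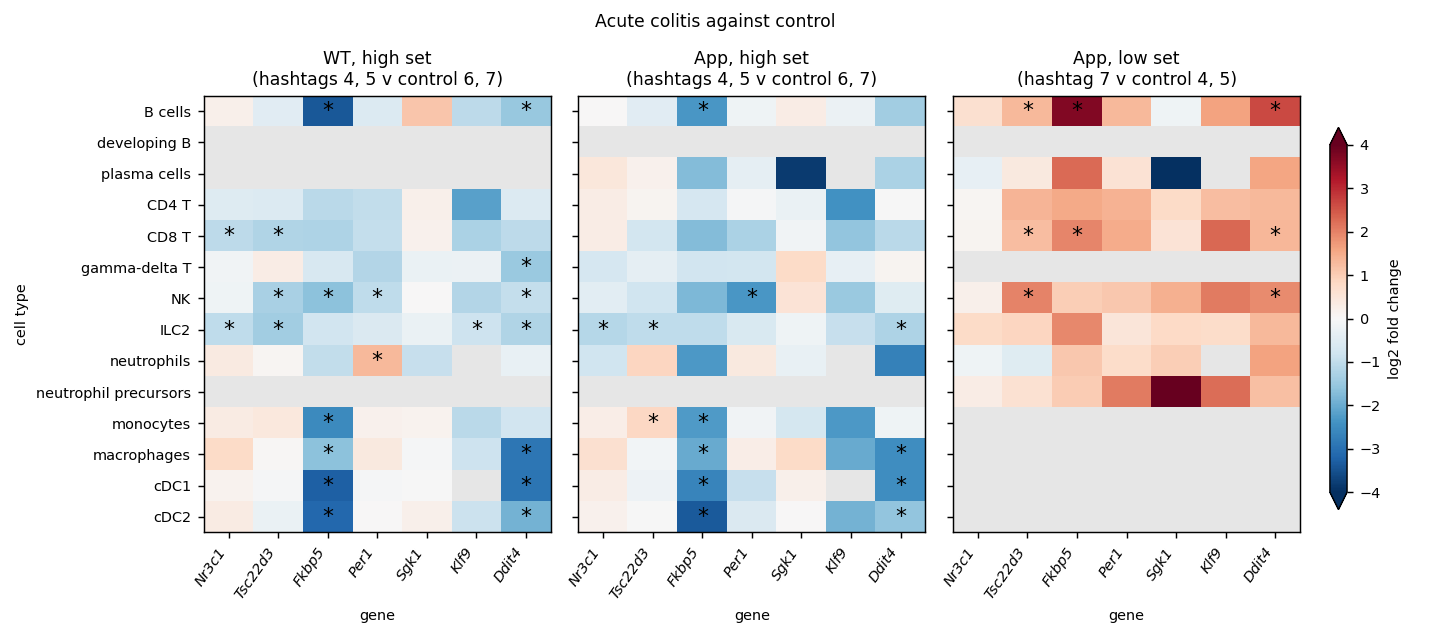
Log2 fold change of acute colitis against control for each gene (columns) in each cell type (rows), within the high set of WT and of App NL-G-F mice (hashtags 4 and 5 against control hashtags 6 and 7) and within the low set of App NL-G-F mice (hashtag 7 against control hashtags 4 and 5). Blue is lower and red higher in colitis, asterisks mark an adjusted p under 0.05, grey was not tested, and colours stop at 4 in either direction. Fkbp5 and Ddit4 are blue down both high-set panels, except Ddit4 near 0 in CD4 T cells, gamma-delta T cells and monocytes of App NL-G-F mice, and red in every row tested of the low-set panel.

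Fkbp5 in B cells held the widest difference. In the high set it was at 148 and 118 CPM in WT control and 13.6 and 10.8 CPM in WT acute colitis, and at 44.4 and 87.6 CPM and 9.57 and 16.6 CPM in App NL-G-F mice. In the low set it was at 11.5 and 20.9 CPM in WT control and 227 CPM (22 UMIs in 32 cells) in WT acute colitis, and at 9.80 and 11.8 CPM and 135 CPM (126 UMIs in 459 cells) in App NL-G-F mice. Every high-set group of acute colitis lay below, and every low-set group above, the control groups of its own set. Read by hashtag, all groups of hashtags 4 and 5 lay at 9.57 to 20.9 CPM and all of hashtags 6 and 7 at 44.4 to 227 CPM, in control and acute colitis alike. In B cells of these 2 conditions the level of Fkbp5 thus parted by hashtag. Among hashtags 6 and 7 the acute colitis group of each genotype also lay above both of its controls. The level did not part so by hashtag in chronic colitis of App NL-G-F mice. There hashtags 4 and 5 were at 20.6 and 40.5 CPM and hashtags 6 and 7 at 21.4 and 25.9 CPM. In WT food allergy the log2 fold change against control was 1.55 among hashtags 4 and 5 and −1.89 among hashtags 6 and 7, the latter with 1 group of food allergy.

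The log2 fold change of Fkbp5 in B cells was −3.39 (SE 0.29, adjusted p = 2.33e-07) in the high set of WT mice and −2.33 (SE 0.35, adjusted p = 0.0135) in that of App NL-G-F mice. In the low set, with 1 group in the colitis arm, it was 3.59 (SE 0.46) and 3.70 (SE 0.35). The low set minus the high set came to 6.98 in WT mice, where 2.87% over all genes were called in that test, with 3.18% called in App NL-G-F mice, where it came to 6.04. Among hashtags 4 and 5 the log2 fold change was −0.39 (SE 0.36, adjusted p = 0.586) in WT mice and 0.32 (SE 0.42, adjusted p = 0.794) in App NL-G-F mice. Among hashtags 6 and 7 it was 0.60 (SE 0.39, adjusted p = 0.693) and 1.05 (SE 0.31, adjusted p = 0.250). Summed over the whole library, Fkbp5 in B cells was at 68.3 CPM in WT control (95% Poisson interval 59.8 to 77.6) and 17.7 CPM (14 to 22.1) in acute colitis, and at 29.6 CPM (23.6 to 36.7) and 47.0 CPM (40.1 to 54.6) in App NL-G-F mice. These intervals cover counting error only.

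Fkbp5 was lower in the high set in all cell types tested, 11 of 11 in WT mice (log2 fold changes from −3.39 to −0.63, 6 called) and 12 of 12 in App NL-G-F mice (from −3.36 to −0.68, 5 called). The hashtag groups did not overlap in 9 of 11 and in 12 of 12 types, against 26.9% and 19.7% of all gene and cell type pairs in that direction. Besides B cells and the cells above, the calls were in type 2 conventional dendritic cells (cDC2) in both genotypes (−3.13, SE 0.45, and −3.36, SE 0.65), in monocytes in both (−2.56, SE 0.41, and −2.26, SE 0.55) and in NK cells of WT mice (−1.65, SE 0.33, adjusted p = 0.00144). In NK cells Fkbp5 was at 122 and 180 CPM in WT control and 38.9 and 48.6 CPM in acute colitis. The control groups of hashtags 4 and 5, like those of colitis, were lower, at 15.8 and 64.2 CPM, and against these the log2 fold change was 0.26 (SE 0.48, adjusted p = 0.919).

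Ddit4 had the same direction as Fkbp5 in the high set in 11 of 11 types in WT mice (7 called) and 11 of 12 in App NL-G-F mice (4 called). In B cells it was at 187 and 118 CPM in WT control and 42.4 and 68.4 CPM in acute colitis (−1.52, SE 0.31, adjusted p = 0.00709). In the low set it was at 68.8 and 92.9 CPM in WT control and 454 CPM in WT acute colitis, and at 109 and 75.9 CPM and 523 CPM in App NL-G-F mice. Among hashtags 4 and 5 the log2 fold change in B cells was −0.47 (SE 0.33, adjusted p = 0.441) in WT mice and −0.52 (SE 0.33, adjusted p = 0.469) in App NL-G-F mice, and the lone groups of hashtags 6 and 7 were above their controls by 1.37 (SE 0.43, adjusted p = 0.259) and 1.78 (SE 0.34, adjusted p = 0.0385). The plot of Fkbp5 and Ddit4 by hashtag group shows both sets for B cells and NK cells and the high set for cDC1.

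**Figure D3:**
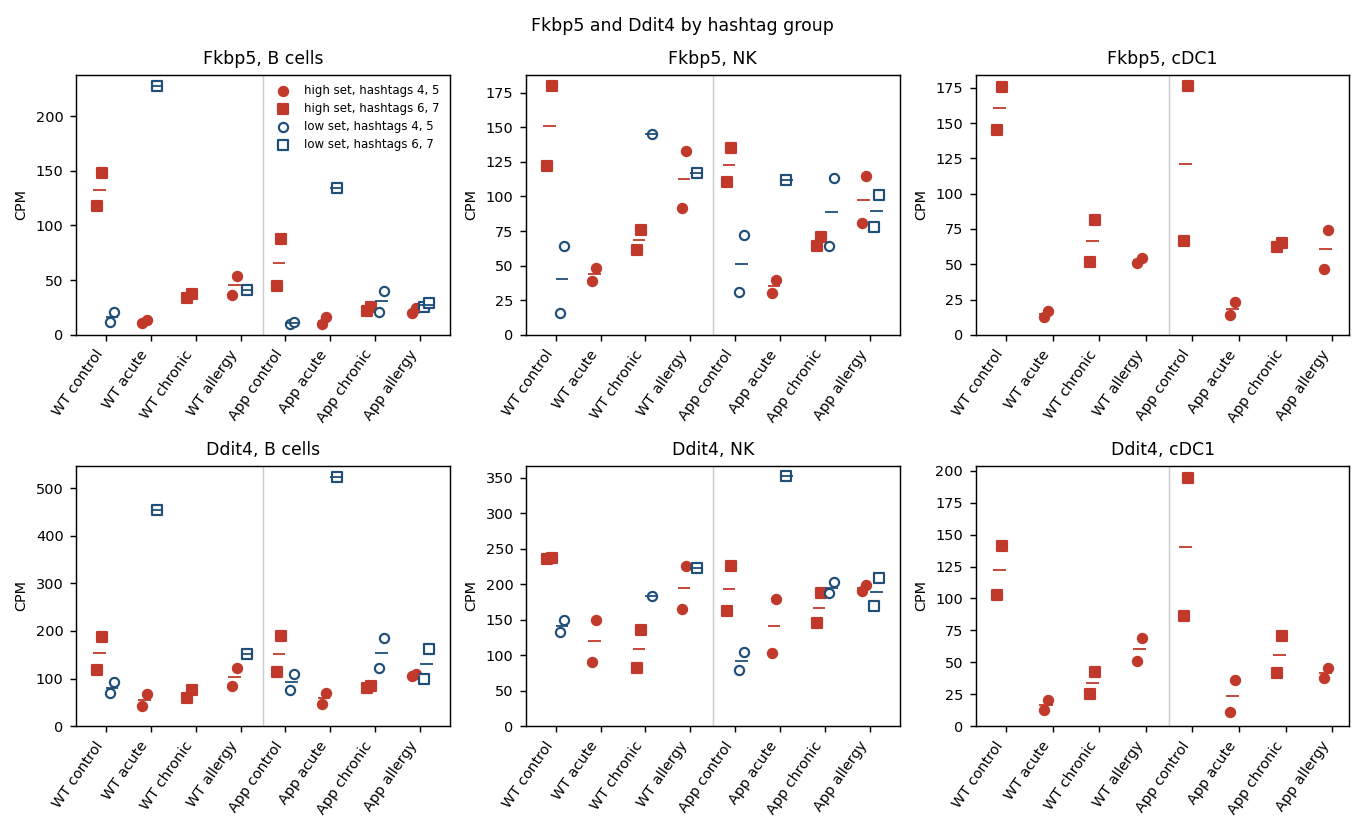
CPM of Fkbp5 (top) and Ddit4 (bottom) in B cells, NK cells and cDC1 of each hashtag group, on linear axes that differ between panels; filled points are groups of the high set and open ones those of the low set, circles are hashtags 4 and 5 and squares hashtags 6 and 7, and short lines are the mean of a set. High-set groups of acute colitis lie below those of control in every panel but Ddit4 in NK cells of App NL-G-F mice, where they overlap, and the low-set groups of acute colitis lie above the low-set controls.

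In B cells, the immediate-early genes that defined the sets were at 3769 to 4743 CPM in WT control and 3597 to 3765 CPM in WT acute colitis of the high set, and at 1244 to 1366 CPM and 1278 CPM in the low set of App NL-G-F mice. Neutrophil markers in B cells were at 7.64 to 15.0 CPM in WT control and 17.1 to 28.0 CPM in WT acute colitis, but at 131 to 206 CPM in App NL-G-F control and 426 to 590 CPM in App NL-G-F acute colitis, in both sets. In monocytes of the high set they were at 1153 to 1287 CPM in WT control and 77.1 to 333 CPM in acute colitis, and at 2608 to 3673 CPM and 256 to 334 CPM in App NL-G-F mice. Their part in the result was not tested.

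Tsc22d3, whose product GILZ restrains inflammatory signalling, was called within a set in NK cells and ILC2. In NK cells of the high set it was at 796 and 989 CPM in WT control and 322 and 348 CPM in acute colitis (−1.29, SE 0.18, adjusted p = 2.61e-06), and at 463 and 576 CPM and 225 and 335 CPM in App NL-G-F mice, where the test was not passed. In the low set of App NL-G-F mice it was at 185 and 123 CPM in control and 631 CPM in the 1 group of acute colitis. Among hashtags 4 and 5 the NK cells of colitis were above those of control, by 0.63 (SE 0.21, adjusted p = 0.131) in WT mice and 0.90 (SE 0.24, adjusted p = 0.0948) in App NL-G-F mice, both short of the threshold.

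In ILC2 of the high set Tsc22d3 was at 621 and 471 CPM in WT control and 135 and 241 CPM in acute colitis (−1.40, SE 0.24, adjusted p = 0.000104), and at 397 and 407 CPM and 183 and 194 CPM in App NL-G-F mice (−1.03, SE 0.27, adjusted p = 0.0453). It also fell in CD8 T cells of WT mice, from 811 and 806 CPM to 281 and 360 CPM (−1.22, SE 0.24, adjusted p = 0.0026). Among hashtags 4 and 5 the change in these CD8 T cells was −0.18 (SE 0.24, adjusted p = 0.838). Monocytes of App NL-G-F mice went the other way. There Tsc22d3 rose, from 219 and 177 CPM to 351 and 364 CPM (0.84, SE 0.17, adjusted p = 0.0063), and among hashtags 4 and 5 it rose in the same cells (0.68, SE 0.18, adjusted p = 0.0159). In ILC2 of WT mice the change among hashtags 4 and 5 was −0.01 (SE 0.30, adjusted p = 0.997).

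The receptor gene itself was called within the high set in ILC2, the cells in which its level was highest. Nr3c1 in ILC2 of the high set was at 395 and 671 CPM in WT control and at 231 and 247 CPM in acute colitis, 216 and 230 CPM in chronic colitis and 182 and 163 CPM in food allergy. The App NL-G-F control groups were at 471 and 636 CPM, and the treated groups at 243 and 245, 185 and 225, and 254 and 265 CPM in the same order. No treated group of the high set with at least 20 ILC2 reached a control group. All 6 contrasts were past the threshold, and each genotype's 3 share their control groups. The share of all genes called or without overlap in high-set ILC2 is not given here. With so few groups per arm, absence of overlap was common over all genes, as the shares given above for Fkbp5 in acute colitis show. Whether the pattern was particular to Nr3c1 was not tested.

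The log2 fold change of Nr3c1 in high-set ILC2 was −1.01 (SE 0.22, adjusted p = 0.00204) in acute colitis, −1.08 (SE 0.22, adjusted p = 0.00101) in chronic colitis and −1.50 (SE 0.23, adjusted p = 3.41e-05) in food allergy of WT mice. In App NL-G-F mice it was −1.13 (SE 0.24, adjusted p = 0.0101), −1.38 (SE 0.23, adjusted p = 0.000494) and −1.03 (SE 0.23, adjusted p = 0.0193). The low set did not share the pattern. There Nr3c1 in ILC2 was at 315 and 185 CPM in WT control and 298 and 190 CPM in chronic colitis and food allergy, and at 319 CPM in App NL-G-F control and 587 CPM in acute colitis. Chronic colitis was compared among the same hashtags in the high set, and the other treatments were not. Among hashtags 6 and 7, food allergy had −1.55 (SE 0.26, adjusted p = 0.000166) in App NL-G-F mice and −1.36 (SE 0.33, adjusted p = 0.00999, 1 group of food allergy) in WT mice. For acute colitis it was 0.18 (SE 0.27, adjusted p = 0.874) among hashtags 4 and 5 of WT mice and 0.04 (SE 0.30, adjusted p = 0.987, 1 group) among hashtags 6 and 7 of App NL-G-F mice. Over all hashtag groups none of the 6 contrasts in ILC2 was called.

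High-set ILC2 also differed in depth and immediate-early genes. The median depth was 1927 to 1959 UMIs per cell in WT control and 3445 to 3550 UMIs in WT acute colitis, and 2204 to 2250 UMIs and 2608 to 2679 UMIs in App NL-G-F mice. The immediate-early genes were at 19424 to 23573 CPM in WT control and 13893 to 15037 CPM in acute colitis. The part of these differences in the result was not tested. In the other cells, Nr3c1 was called in CD8 T cells of WT mice alone (−1.05, SE 0.25, adjusted p = 0.0200), where 1 control group stood at 250 CPM and the other at 131 CPM against 83.7 and 81.2 CPM in acute colitis. Its median over the 11 cell types of WT mice was 0.15.

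**Figure D4:**
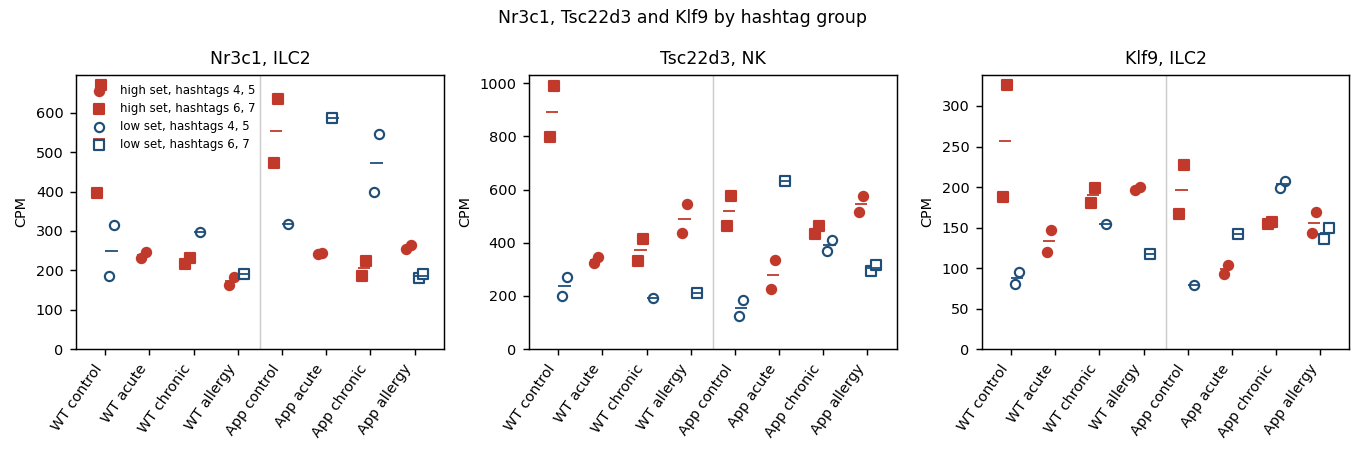
CPM of Nr3c1 in ILC2, Tsc22d3 in NK cells and Klf9 in ILC2 of each hashtag group, on linear axes from 0; filled points are groups of the high set and open ones those of the low set, circles are hashtags 4 and 5 and squares hashtags 6 and 7, and short lines are the mean of a set. The high-set controls are the highest filled points of their genotype in the first panel, where every high-set group of treated mice lies at 265 CPM or lower.

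Klf9 had negative log2 fold changes in the high set in 9 of 9 cell types of each genotype, from −2.18 to −0.25 in WT mice and from −2.43 to −0.22 in App NL-G-F mice, but only 1 of the 18 was called. That one was in ILC2 of WT mice, where Klf9 was at 326 and 188 CPM in control and 119.3 and 147 CPM in acute colitis (−0.83, SE 0.20, adjusted p = 0.00713). In ILC2 of App NL-G-F mice it was at 227 and 167 CPM and at 104 and 93 CPM. The low-set controls lay below the high-set controls, at 80.7 and 94.8 CPM in WT mice and 79.7 CPM in App NL-G-F mice. Among hashtags 4 and 5 of WT mice, Klf9 in ILC2 was instead higher in colitis (0.76, SE 0.29, adjusted p = 0.240), short of the threshold. B, CD4 T, CD8 T and NK cells there also had positive changes, from 0.53 to 1.41, none called. In App NL-G-F mice those of B cells, CD8 T cells, NK cells and monocytes were positive and that of CD4 T cells negative (−1.69), none called. Ddit4 was called in high-set ILC2 of both genotypes (−1.19, SE 0.29, adjusted p = 0.00743 in WT, and −1.22, SE 0.31, adjusted p = 0.0334 in App NL-G-F mice).

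Per1, the clock repressor, went both ways in the high set, and its direction in NK cells turned with the hashtags compared. In NK cells it fell, from 124 and 89.9 CPM to 42.6 and 63.5 CPM in WT mice (−1.02, SE 0.28, adjusted p = 0.0343) and from 72.2 and 70.3 CPM to 19.9 and 8.60 CPM, the last 2 being 3 and 2 UMIs, in App NL-G-F mice (−2.34, SE 0.51, adjusted p = 0.0302). In neutrophils of WT mice it rose, from 99.9 and 117 CPM to 235 and 383 CPM (1.29, SE 0.28, adjusted p = 0.00118). In App NL-G-F neutrophils of the high set it was at 64.3 and 76.7 CPM in control and 101 and 124 CPM in acute colitis, and the test was not passed. Among hashtags 4 and 5, Per1 rose in NK cells (1.67, SE 0.46, adjusted p = 0.0343) and B cells (1.91, SE 0.32, adjusted p = 0.000621) of WT mice and in neutrophils (2.32, SE 0.55, adjusted p = 0.0150) and monocytes (1.73, SE 0.37, adjusted p = 0.0037) of App NL-G-F mice. In neutrophils of hashtag 7 of App NL-G-F acute colitis it was lower than in hashtags 6 and 7 of control (−1.18, SE 0.31, adjusted p = 0.0161).

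Sgk1, which held the palindrome in 1 of its 6 promoters, was called in no cell type in acute colitis within the high set of either genotype with edgeR. There 1 test of 11 in WT mice and 0 of 12 in App NL-G-F mice had an unadjusted p under 0.05. Of its tests in the high set, 5 of 11 were negative in WT mice and 6 of 12 in App NL-G-F mice. In cDC1, where it was highest, it was at 128 and 123 CPM in WT control and 99.9 and 142 CPM in acute colitis, and at 117 and 105 CPM and 142 and 115 CPM in App NL-G-F mice. The control and colitis groups of cDC1 overlapped in both genotypes, while Fkbp5 and Ddit4 in the same cells did not overlap.

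Over all hashtag groups, chronic colitis gave fewer calls than acute colitis. In that fit 2 of 66 tests were called in WT mice, both lower, when 3.06% over all genes were called and 0.782% called lower. Both were in cDC1, where Fkbp5 was at 81.6 and 51.4 CPM (−1.15, SE 0.33, adjusted p = 0.0461) and Ddit4 at 25.4 and 42.5 CPM (−1.70, SE 0.40, adjusted p = 0.0124) against the control values given above. Leaving out hashtag 6 or 7 of the control or hashtag 7 of chronic colitis ended the call for Fkbp5 (adjusted p from 0.0957 to 0.371). For Ddit4, hashtag 7 of the control (adjusted p = 0.132) or hashtag 6 of chronic colitis (adjusted p = 0.134) did so. That last group's cDC1 carried neutrophil markers at 4814 CPM, and their part in the result was not tested.

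App NL-G-F mice had 1 call in 91 tests, when 0.118% over all genes were called and 0.0373% called higher. It was Tsc22d3 in developing B cells, which was at 146 and 120 CPM in control and 426, 305 and 250 CPM in chronic colitis (1.39, SE 0.28, adjusted p = 0.0269). Both control groups there were of the low set, as was the highest of chronic colitis. The adjusted p was 0.0838 without hashtag 4 and 0.561 without hashtag 5 of the control, and 0.244 with the set as a term of the fit.

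Within the high set of WT mice, 15 of 61 tests were lower in chronic colitis and none higher, against 7.41% called and 3.29% called lower over all genes. B cells held 3 of them. Fkbp5 was at 34.0 and 37.4 CPM (−1.93, SE 0.25, adjusted p = 6.98e-05), Ddit4 at 59.6 and 75.6 CPM (−1.24, SE 0.31) and Tsc22d3 at 697 and 845 CPM against 1184 and 1248 CPM in control (−0.67, SE 0.17, adjusted p = 0.0214). NK cells held calls of Tsc22d3, Per1 and Ddit4, and ILC2 those of Nr3c1, Tsc22d3 and Ddit4. In hashtag 6 of WT chronic colitis, B cells carried neutrophil markers at 2500 CPM, and their part in the result was not tested.

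Sgk1 was lower in chronic colitis in neutrophils (−1.28, SE 0.34, adjusted p = 0.0132) and monocytes (−1.13, SE 0.30, adjusted p = 0.00576) of the WT high set. In monocytes it was at 50.0 and 75.2 CPM in control and 26.5 and 49.2 CPM in chronic colitis. Klf9 fell in the same monocytes, from 83.4 and 49.5 CPM to 36.2 and 21.1 CPM (−1.14, SE 0.33, adjusted p = 0.0127). The high set of App NL-G-F mice gave 4 calls of 81 (1.27% over all genes, 0.81% lower and 0.461% higher), Fkbp5 in B cells and Nr3c1 and Ddit4 in ILC2 lower, and Tsc22d3 in monocytes higher (0.63, SE 0.16, adjusted p = 0.0231). Its low set gave 2 of 60, Tsc22d3 in developing B cells and in NK cells, both higher (0.309% over all genes, 0.221% higher). The low set of WT mice gave 1 of 28, also higher (0.818% over all genes, 0.783% higher), Sgk1 in ILC2 at 32.3 and 15.0 CPM in control and 144 CPM, or 15 UMIs, in chronic colitis.

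Food allergy was called for 2 of 73 tests in WT mice, both lower, when 1.29% over all genes were called and 0.24% called lower. Ddit4 in gamma-delta T cells was at 107 and 87.0 CPM against 262 and 294 CPM in control (−1.53, SE 0.40, adjusted p = 0.0445), and Fkbp5 in cDC1 at 51.0 and 54.4 CPM against 145 and 176 CPM (−1.59, SE 0.38, adjusted p = 0.0197). Both compared hashtags 4 and 5 with control hashtags 6 and 7. Each was lost without hashtag 7 of the control or either group of food allergy (adjusted p from 0.202 to 0.418 for Ddit4 and from 0.123 to 0.148 for Fkbp5). None of 91 in App NL-G-F mice was called by edgeR or by DESeq2, when 0.0249% over all genes were called, and 11 had an unadjusted p under 0.05.

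Within the high set, food allergy gave 5 of 75 calls in WT mice, all lower (2.91% called and 1.09% called lower over all genes). They were the calls of gamma-delta T cells and cDC1 just named, Nr3c1 in ILC2, Fkbp5 in B cells (−1.44, SE 0.31, adjusted p = 0.0200) and Tsc22d3 in NK cells (−0.77, SE 0.18, adjusted p = 0.0103). Nr3c1 in ILC2 was the only call of 81 in App NL-G-F mice (0.229% over all genes, 0.134% lower). The low set gave none of 28 in WT mice with edgeR (4 with an unadjusted p under 0.05, 0.416% called over all genes) and 1 of 67 in App NL-G-F mice (0.026% over all genes, 0.0188% higher), Fkbp5 in CD8 T cells, from 29.3 and 13.1 CPM to 74.1 and 62.3 CPM (1.43, SE 0.28, adjusted p = 0.0156).

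Among the same hashtags, food allergy was called in other directions for hashtags 4 and 5 than for hashtags 6 and 7. Hashtags 4 and 5 gave 6 of 35 in WT mice (2.73% over all genes, 2.24% higher) and 4 of 46 in App NL-G-F mice (2.71% over all genes, 2.02% higher), all higher in food allergy. Hashtags 6 and 7 gave 6 of 28 in WT mice, all lower (2.91% over all genes, 1.3% lower), with 1 group of food allergy, and 8 of 62 in App NL-G-F mice, 6 lower and 2 higher (4.83% over all genes, 2.89% lower and 1.94% higher). Fkbp5 in B cells of WT mice was higher by 1.55 (SE 0.38, adjusted p = 0.0239) among the former and lower among the latter, at −1.89 (SE 0.46, adjusted p = 0.0222). Tsc22d3 in NK cells of App NL-G-F mice had 1.80 (SE 0.21, adjusted p = 5.97e-07) and −0.77 (SE 0.18, adjusted p = 0.0110).

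Genotype was compared in the controls, where none of 79 tests was called by edgeR or DESeq2, 5 had an unadjusted p under 0.05, and 1.95% over all genes were called. Within the high set 3 of 75 were lower in App NL-G-F control (1.79% called and 0.297% called lower over all genes), and within the low set none of 53 was called by edgeR, with 5 at an unadjusted p under 0.05 and 1.18% called over all genes. In the high set Per1 in B cells was at 60.6 and 80.2 CPM in WT and 28.3 and 19.8 CPM in App NL-G-F control (−1.40, SE 0.35, adjusted p = 0.0488), Nr3c1 in CD8 T cells was at 131 and 250 CPM and 94.9 and 83.2 CPM (−0.93, SE 0.25, adjusted p = 0.0468), and Tsc22d3 in NK cells at 796 and 989 CPM and 463 and 576 CPM (−0.63, SE 0.17, adjusted p = 0.0483). Whether a treatment acted differently in the 2 genotypes was tested itself. With edgeR none of 79 interaction tests was past the threshold for acute colitis, none of 66 for chronic colitis and none of 73 for food allergy (0.755%, 1.07% and 0.492% called over all genes). In the same order 10, 3 and 4 had an unadjusted p under 0.05, and DESeq2 called 0, 0 and 1. Within the high set edgeR called none either, with 5, 7 and 7 at an unadjusted p under 0.05 and 0.742%, 1.12% and 0.468% called over all genes.

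The wider pathway was described with lists of genes, each tested in the same fits. Of 35 other known or reported glucocorticoid-responsive genes, 30 were tested, and over all hashtag groups 7 of 244 tests were lower and 3 higher in acute colitis of WT mice, and 6 lower and 2 higher of 244 in App NL-G-F mice, beside the 2.2% and 0.323% called over all genes. The median log2 fold change was −0.04 and −0.05. Mt1, which encodes a metal-binding metallothionein, was at 899 and 1785 CPM in cDC1 of WT control and 176 and 379 CPM in acute colitis (−2.26, SE 0.42, adjusted p = 0.00116), and at 968 and 2727 CPM and 215 and 213 CPM in App NL-G-F mice (−3.12, SE 0.43, adjusted p = 0.000273). Il1r2, a decoy receptor for interleukin 1, was at 235 and 251 CPM in cDC2 of WT control and 20.4 and 26.9 CPM in acute colitis (−3.24, SE 0.34, adjusted p = 1.78e-05), and at 125 and 125 CPM in App NL-G-F control and 10.6, 16.8 and 42.4 CPM in acute colitis (−2.64, SE 0.39, adjusted p = 0.00829).

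Of that list, Il1r2 in WT monocytes also fell, from 475 and 702 CPM to 3.08 and 0 CPM (2 and 0 UMIs), as did Tgm2 in cDC2 of App NL-G-F mice, from 49.3 and 38.5 CPM to at most 1 UMI per group. Neutrophil markers in those WT monocytes were also lower in acute colitis than in control, as given above. Their part in the result for Il1r2 was not tested. Zbtb16, a transcription factor of innate-like T cells, was lower in gamma-delta T cells of WT mice in all 3 treatments, at 309 and 607 CPM in control and 140 and 94.5 CPM in acute colitis (−1.89, SE 0.45, adjusted p = 0.0175), with −2.06 (SE 0.40) in chronic colitis and −2.17 (SE 0.47) in food allergy. The list had 8 lower and 1 higher of 199 in WT chronic colitis, 3 lower of 285 in App NL-G-F chronic colitis, 3 lower of 223 in WT food allergy and 1 lower of 285 in App NL-G-F food allergy, where 3.06%, 0.118%, 1.29% and 0.0249% over all genes were called. The 1 higher was Lcn2, a neutrophil granule gene, in WT B cells, where 281 of its UMIs lay in the hashtag group with neutrophil markers at 2500 CPM. Within the high set 32 of 245 were lower and 10 higher in WT acute colitis and 14 lower and 4 higher of 266 in App NL-G-F acute colitis, and within the low set of App NL-G-F mice 2 were lower and 12 higher of 173, beside 5.75%, 1.07% and 1.95% called over all genes. The cDC1 of both genotypes and the WT cDC2, monocytes, macrophages and gamma-delta T cells had hashtags 6 and 7 in control and hashtags 4 and 5 in acute colitis and food allergy, so the calls named in them cannot be told apart from a difference of hashtags, those in WT chronic colitis excepted.

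Counts of the other lists follow, to be read beside the 2.2% called over all genes in WT and the 0.323% in App NL-G-F acute colitis. Of 18 genes of the receptor's machinery, such as Hsp90aa1, Fkbp4, Hsd11b1 and coactivators, 1 of 165 tests was called in WT acute colitis, Ncoa3 in cDC1, from 58.7 and 53.2 CPM to 95 and 99 CPM (0.85, SE 0.22, adjusted p = 0.0235), and none in App NL-G-F acute colitis, where 2 had an unadjusted p under 0.05. WT chronic colitis, with 3.06% called over all genes, had 5 lower of 138, including the heat shock genes Hsp90aa1 and Hspa8 in gamma-delta T cells, and there Hspa8 was at 2700 and 8029 CPM in the 2 control groups. Of 18 clock genes other than Per1, 2 of 64 tests were lower in WT acute colitis and none was called in App NL-G-F acute colitis, where 8 had an unadjusted p under 0.05. Both were Nfil3, a clock output gene that cDC1 need to develop, which was at 131 and 242 CPM in WT control macrophages and 49.3 and 44.0 CPM in acute colitis (−1.88, SE 0.45, adjusted p = 0.0144), and at 67.9 and 92.5 CPM and 24.9 and 34.0 CPM in cDC1 (−1.43, SE 0.37, adjusted p = 0.0232).

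Of 15 genes of hypoxia and the integrated stress response, which also induce Ddit4, 1 of 69 tests was lower and 2 higher in WT acute colitis and none was called in App NL-G-F acute colitis, where 3 had an unadjusted p under 0.05. They were the glucose transporter Slc2a1 in monocytes, lower (−1.47, SE 0.34), Chac1 in neutrophils, higher (3.62, SE 0.81), and Atf3 in cDC1, higher (0.75, SE 0.22). The 10 immediate-early genes themselves had 3 higher of 118 in WT acute colitis and 1 higher of 118 in App NL-G-F acute colitis. In the high set of WT mice (5.75% over all genes) the machinery list had 2 lower and 3 higher of 156, the clock list 5 lower and 1 higher of 68, the hypoxia list 4 lower and 5 higher of 68 and the immediate-early list 6 lower and 8 higher of 108. In the high set of App NL-G-F mice (1.07% over all genes) the machinery list had none of 171 with edgeR, where 12 had an unadjusted p under 0.05, the clock list 4 lower and 1 higher of 75, the hypoxia list 1 higher of 75 and the immediate-early list 4 lower and 3 higher of 118. Dusp1 and Zfp36 stand in both that list and the list of glucocorticoid-responsive genes.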

How the data were processed

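CD45.2+ brain cells of 8 libraries were analysed. The authors deposited counts of UMIs per gene and barcode, for every barcode and without normalization, made on GRCm38 (mm10). The methods and the submitters' processing notes name Cell Ranger 6.1.2, and the file headers name Cell Ranger 4. Gene coordinates came from GENCODE annotation of the same build.

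Cells were called with an order-of-magnitude cutoff and a test against the ambient profile (at least 500 UMIs, false discovery rate 0.01), then kept if they had 200 genes or more and no more than 5% of UMIs from mitochondrial genes. The libraries held 25623468 to 54619221 UMIs in cells, and 34 to 72 barcodes were shared by a pair of libraries. A cell was typed by at least 3 detected markers, and 14240 cells stayed without a type. Cells with several hashtags were left out, and no other doublet caller was run, so doublets within a hashtag group remain.

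UMIs were summed per hashtag group and type (at least 20 cells) and fitted per type with edgeR 4.0.16 (R 4.3.3, TMM, filterByExpr, quasi-likelihood test) over all 8 conditions. Adjustment of p-values followed Benjamini and Hochberg over all genes of a type and contrast. The SE was taken as the fold change over the root of the F statistic. Levels were compared as log2(CPM + 10) with two-sided paired permutation tests (100000 sign changes, exact under 10 pairs), adjusted over all steps of the 7 genes. The fits were tested on simulated sums with known fold changes. These held no difference between hashtags or immediate-early sets, so they cannot show how the fits behave where condition, set and hashtag coincide. The members and gene lists were chosen with earlier results of these data known. The named genes were the 7 genes, up to 4 called genes of each list with the largest change, and the 3 genes most like each in level. The immediate-early sets, the fits within them and among hashtags 4 and 5 or 6 and 7, and the hashtag as a replicate block were added once the data were known, and those fits were not repeated without single hashtag groups. The other alternatives were DESeq2 1.42.0, scaling by library total, no filter on low counts, the cutoff alone for cells, 1 more marker, at least 50 cells, the set as a term, and each hashtag group left out. Receptor sequences of lymphocytes were not used here.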

Additional observations from a re-analysis of the deposited data

Results flagged for a closer look

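The effect of a treatment differed between the 2 immediate-early sets, by a test of the difference itself, in 23 cases (low minus high, log2 scale). In acute colitis of App NL-G-F mice the difference was 1.75 for Tsc22d3, 6.04 for Fkbp5 and 4.03 for Ddit4 in B cells, and 1.98, 3.72 and 2.42 for the same genes in CD8 T cells. In NK cells it was 2.77 for Tsc22d3, 2.77 for Fkbp5, 3.43 for Per1, 3.56 for Klf9 and 2.38 for Ddit4. In ILC2 it was 1.89 for Nr3c1, 1.87 for Tsc22d3, 2.94 for Fkbp5 and 2.52 for Ddit4. Neutrophils differed in 2 ways, with −1.36 for Tsc22d3, which was lower in the low set, and 3.38 for Fkbp5. In WT acute colitis, where B cells alone could be tested, it was 1.32 for Tsc22d3, 6.98 for Fkbp5 and 3.95 for Ddit4. In App NL-G-F chronic colitis it was 1.43 for Tsc22d3 in NK cells, and 1.83 for Nr3c1 and 2.5 for Ddit4 in ILC2. Acute colitis had 1 hashtag group in the low set of each of these tests, which has no spread of its own and was assumed to vary like the others. In acute colitis the sets also carried different hashtags than in control, so these differences cannot be told apart from differences between hashtags 4 and 5 and hashtags 6 and 7. The test was run 47 times for acute and 48 times for chronic colitis of App NL-G-F mice, and 7 times for WT acute colitis. There was no case in App NL-G-F food allergy (55 tests) or between the genotypes (35 tests). WT chronic colitis and food allergy, also with 1 low-set group, had 21 and 28 tests. The share over all genes is given above for acute colitis, and none is given for chronic colitis.

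In 10 of 175 sets of 4 hashtag groups of 1 condition, 1 group stood apart from the other 3, and chance alone would flag about 1 in 20. Nr3c1 was at 250.3 CPM in CD8 T cells of 1 WT control group, against 118 to 131 CPM in the others. It was at 87.11 CPM in neutrophils of 1 App NL-G-F food allergy group (others 59.9 to 63.7 CPM). Fkbp5 was at 113.2 CPM in NK cells of 1 App NL-G-F chronic colitis group (64.4 to 70.6 CPM). Sgk1 was at 20.99 CPM in developing B cells (67.4 to 72.2 CPM) and 65.04 CPM in CD8 T cells (42.8 to 45.7 CPM) of App NL-G-F food allergy groups, and at 2.178 CPM in NK cells of 1 App NL-G-F control group (28.1 to 30.7 CPM). Klf9 was at 0.9579 CPM in B cells (5.79 to 6.21 CPM) and 58.48 CPM in CD4 T cells (13.9 to 20.4 CPM) of App NL-G-F chronic colitis groups. Ddit4 was at 161.8 CPM in B cells of 1 App NL-G-F food allergy group (99.8 to 109 CPM) and at 413.1 CPM in CD4 T cells of 1 App NL-G-F control group (145 to 176 CPM).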

How the results depend on the processing

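The labels give no replicate numbers, but hashtag numbers recur, and the hashtag number was added as a replicate block once the data were known. Same-numbered groups did not deviate together throughout (Pearson r of deviations in B cells from −0.298 to 0.321 over 19 pairs, across 8496 genes), so the numbers were not taken to pair the samples. With the replicate block, acute colitis and food allergy could not be estimated in cDC1 and macrophages, and the calls were 1 for WT acute colitis, 1 for App NL-G-F acute colitis, 1 for WT food allergy, 3 for App NL-G-F food allergy and 3 for App NL-G-F chronic colitis. Of the calls of the main fit that the replicate block could estimate, the 3 that fell short were Ddit4 in gamma-delta T cells in WT acute colitis (−1.68, adjusted p = 0.0837) and food allergy (−1.73, adjusted p = 0.103) and Fkbp5 in WT monocytes (−1.77, adjusted p = 0.512). With the replicate block and the set as terms together the calls were 2 for WT acute colitis, 0 for App NL-G-F acute colitis, 1 for WT food allergy, 3 for App NL-G-F chronic colitis, 1 for the genotypes and 1 for the interactions, and Fkbp5 in WT monocytes was again short (−1.78, adjusted p = 0.0685). Among hashtags 4 and 5 they were 6 for WT and 4 for App NL-G-F food allergy. Among hashtags 6 and 7 they were 0 for WT acute colitis, 15 for WT and 4 for App NL-G-F chronic colitis, 6 for WT and 8 for App NL-G-F food allergy and 3 for the genotypes.

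The 15 calls of single genes over all hashtag groups kept their direction under every alternative that gave a value. The replicate block gave no value for those of acute colitis and food allergy in cDC1 and macrophages. In cDC1 and macrophages, however, all tested groups were of the high set. There the fit within that set and the set as a term held the same groups as the main fit, so they could not change the direction. Besides those above, 5 values fell short of the threshold outside the left-out groups: Tsc22d3 in developing B cells in App NL-G-F chronic colitis with the set as a term (1.34, adjusted p = 0.244), Ddit4 in gamma-delta T cells with 1 more marker in WT acute colitis (−1.50, adjusted p = 0.0533) and in WT food allergy (−1.54, adjusted p = 0.0616), the latter also with library totals (−1.51, adjusted p = 0.0576), and Fkbp5 in cDC1 in WT chronic colitis with DESeq2 (−1.15, adjusted p = 0.0812).

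Under the other alternatives the number of calls changed by more than 1.5 times as follows. The share called over all genes was taken only for the main fit and for the fits within the sets or among the same hashtags. Counts under the other settings therefore have no such share beside them, and do not show whether the change was particular to these genes. For WT acute colitis (6) it was 14 without the filter on low counts, 2 with at least 50 cells, 21 within the high set and 2 within the low set. For WT chronic colitis (2) it was 1 with DESeq2, 6 without the filter, 5 with the set as a term, 15 within the high set and 1 within the low set. For WT food allergy (2) it was 1 with library totals, with the cutoff alone and with 1 more marker, 4 without the filter, 5 within the high set and 0 within the low set. For App NL-G-F acute colitis (4) it was 7 without the filter, 2 with at least 50 cells, 7 with the set as a term, 13 within the high set and 8 within the low set. Chronic colitis of App NL-G-F mice (1) had 5 without the filter, 0 with the cutoff alone and with at least 50 cells, 4 within the high set and 2 within the low set. For App NL-G-F food allergy (0) it was 4 without the filter and 1 within either set. For App NL-G-F against WT control (0) it was 2 without the filter, 1 with the set as a term and 3 within the high set. For the interactions (0) it was 1 with DESeq2, 11 without the filter and 1 with the set as a term. The filter and the minimum of cells change which tests are run, and for the other settings the cause was not tested. With each hashtag group left out in turn, the calls ran from 3 to 6 for WT acute colitis, 1 to 6 for App NL-G-F acute colitis, 0 to 2 for WT chronic colitis, 0 to 3 for App NL-G-F chronic colitis, 0 to 3 for WT food allergy, 0 to 2 for App NL-G-F food allergy, 0 to 3 for the genotypes and 0 to 1 for the interactions. Depth limits the rarer values, such as Klf9 in B cells and Sgk1 in ILC2, where a group held few UMIs.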
